A study of Mus musculus with 3 samples.

Results

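Atoh7 peaks were described at 10 genes that encode RNA-binding proteins of the developing nervous system: the progenitor regulators Msi1 and Msi2, and the neuronal regulators Srrm4, Rbfox1, Rbfox2, Rbfox3, Elavl3, Elavl4, Rbpms and Nova2. A peak belonged to a gene when its midpoint lay inside the RefSeq gene body or within 100 kb of it. This gave 25 of the 3668 peaks in the list, at 8 of the 10 genes, beside 34.9% of all protein-coding genes by the same rule. The 10 genes are longer, with a median of 151 kb against 17.3 kb for all protein-coding genes. The retinas were C57Bl6/J mouse retinas at embryonic day 14, profiled by CUT&RUN, which frees DNA around a bound protein with an antibody-tethered nuclease for sequencing. By the labels, 2 libraries were titled Atoh7 and 1, the background control, IgG. No transgene, deletion or treatment is named for either group, and separate animals are not stated for the Atoh7 libraries. A single peak list was analysed, on the mm10 build, with a position and a width for each peak but no height and no value per library. Spread between replicates and signal in the IgG library are therefore not analysed here, read depth is unknown, and no test was run. The list has no expression values, so the labelled tissue could not be checked against its markers. Members were thus chosen by peak position, and the counts per gene are a description with no test.

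Atoh7 is a basic helix-loop-helix transcription factor of neurogenic retinal progenitors, and proteins of this class bind E-boxes, short DNA sites of the form CANNTG. RNA-binding proteins of the nervous system act after transcription, by choosing exons, stabilising messages or holding back their translation. The Musashi proteins Msi1 and Msi2 are known from neural stem and progenitor cells, the Elavl and Rbfox families from differentiating and mature neurons, and retinal ganglion cells are commonly recognised by Rbpms and Rbfox3 protein.

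At 2 of the 7 genes for which an annotated transcription start was available, Elavl4 and Srrm4, a peak covered such a start. RefSeq promoter sequences (GRCm38.p6, of which mm10 is the browser name) were matched for 7 of the 10 genes, in 13 windows, each running from 250 bases before a start to 50 bases after it. Msi1, Rbpms and Rbfox2 were not among them. The 250 bases before 5 of these starts are printed 5′ to 3′ with every CANNTG in capitals, because they show the starts that carried a peak beside starts that did not.
Elavl4, internal start under a peak, chr4:110287528-110287777, minus strand: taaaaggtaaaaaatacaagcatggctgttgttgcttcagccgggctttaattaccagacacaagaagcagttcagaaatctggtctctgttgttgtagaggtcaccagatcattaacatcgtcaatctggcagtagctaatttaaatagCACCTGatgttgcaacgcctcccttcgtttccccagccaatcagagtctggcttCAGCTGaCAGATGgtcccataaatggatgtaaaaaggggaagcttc
Elavl4, distal start without a peak, chr4:110351912-110352161, minus strand: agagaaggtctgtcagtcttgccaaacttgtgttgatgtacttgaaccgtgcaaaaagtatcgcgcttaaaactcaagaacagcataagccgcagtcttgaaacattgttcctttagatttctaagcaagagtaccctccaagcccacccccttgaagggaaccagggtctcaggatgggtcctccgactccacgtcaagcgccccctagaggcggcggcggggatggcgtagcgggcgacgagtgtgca
Srrm4, start under a peak, chr5:116591818-116592067, minus strand: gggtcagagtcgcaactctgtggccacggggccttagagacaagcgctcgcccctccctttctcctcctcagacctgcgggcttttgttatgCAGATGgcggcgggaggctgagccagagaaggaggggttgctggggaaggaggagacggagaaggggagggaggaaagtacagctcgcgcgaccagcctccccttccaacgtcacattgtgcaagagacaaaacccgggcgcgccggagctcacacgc
Elavl3, start without a peak, chr9:22052024-22052273, minus strand: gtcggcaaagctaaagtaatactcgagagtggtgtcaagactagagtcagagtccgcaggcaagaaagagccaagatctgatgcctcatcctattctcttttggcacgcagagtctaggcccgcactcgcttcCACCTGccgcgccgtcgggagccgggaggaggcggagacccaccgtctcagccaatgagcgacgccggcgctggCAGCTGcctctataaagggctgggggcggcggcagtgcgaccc
Msi2, start without a peak, chr11:88718278-88718527, minus strand: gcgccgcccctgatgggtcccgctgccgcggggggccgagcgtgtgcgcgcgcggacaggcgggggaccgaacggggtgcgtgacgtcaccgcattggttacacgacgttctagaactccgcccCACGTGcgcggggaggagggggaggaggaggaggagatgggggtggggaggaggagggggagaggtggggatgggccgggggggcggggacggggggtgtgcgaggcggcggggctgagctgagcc

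Elavl4 encodes HuD, a neuronal protein that binds AU-rich stretches of messages and stabilises them. Its peak at chr4:110287401-110287876 was 476 bp wide and lay in the middle of the gene (chromosome 4, 110203737 to 110351939). RefSeq annotates a pair of starts there, at 110287527 and 110287511, and both promoter windows lay wholly under the peak (300 of 300 bases each). The peak centre was 111.5 bp upstream of the nearer start. A further internal start, at 110286834, had none of its window under the peak. The distal start at 110351911, near the high-coordinate end of the gene, had no peak, and the nearest peak centre was 59.3 kb away from it. The 250 bases before the internal start held 3 E-boxes, of which CAGCTG began 46 bases and CAGATG 39 bases before the start, with 1 base between them. CACCTG began 100 bases before it. The distal promoter held no E-box.

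Srrm4 encodes a splicing factor, also called nSR100, that promotes the inclusion of neuronal microexons. Its start at 116591817 lay under a 702 bp peak at chr5:116591773-116592474, which covered 295 of the 300 bases of the promoter window and was centred 306.5 bp upstream of the start. That promoter held 1 E-box, CAGATG, beginning 158 bases before the start. RefSeq draws the Srrm4 body to 116592562, beyond this start, so the peak counts as inside the gene. Across all protein-coding genes, 4.38% had a peak centred within 1 kb of a start (or of a gene end where no start was given). The 32817 different promoter windows include those of noncoding RNA genes, and 1.98% of them had 150 bases or more under a peak.

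Among the 7 genes with a promoter entry, 6 held CANNTG in the 250 bases before at least 1 start, 3 held CAGCTG and 2 held CAGATG or its reverse complement CATCTG. These letters are common: of all promoters, 66.2% held CANNTG, 14.5% CAGATG or CATCTG and 13.01% CAGCTG. Those shares are per promoter window, whereas a gene was counted if any of its windows, up to 4 for Elavl4, held the letters. Per window, 10 of the 13 windows of these genes held CANNTG. An E-box of any form stood in 59.2% of the 650 promoters under a peak, against 66.4% of those not under a peak. The form CAGCTG stood in 24.5% of promoters under a peak, against 12.8% of those not under a peak. For CAGATG or CATCTG the shares were 15.1% and 14.4% in the same order. Sites of the forms CAGCTG and CAGATG (or CATCTG) stood together, as at the internal Elavl4 start, in 4.0% of promoters under a peak and in 1.91% of the others. Elavl3 had CAGCTG beginning 43 bases before its start and yet no peak there, its single peak being centred 16.3 kb into the gene. The Msi2 promoter printed here held CACGTG, an E-box form that 6.02% of all promoters held, and its start was 112.99 kb from the nearest peak centre. A match says only that the letters are present in these windows.

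**Figure D1:**
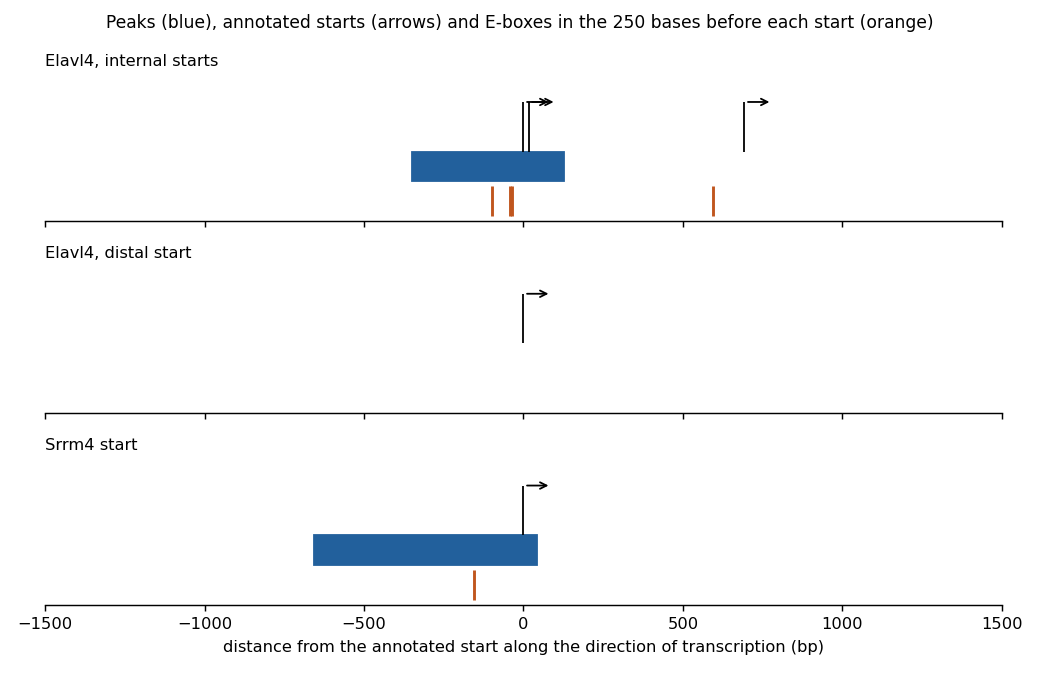
Peaks (blue bars), RefSeq starts (arrows) and CANNTG sites in the 250 bases before each start (orange ticks), drawn in the direction of transcription as distance in bp from the start named in each panel. The Elavl4 peak covers a pair of internal starts and 3 E-boxes, the distal Elavl4 start has no peak, and the Srrm4 peak reaches over its start and 1 E-box.

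The progenitor regulators each had 6 peaks within 100 kb. Musashi proteins bind messages and control their translation in neural progenitors, and Msi1 is known for repressing the message of the Notch inhibitor Numb. By the rule used here, 34.9% of protein-coding genes had at least 1 peak and 0.231% had 6 or more. Since the rule itself counts peaks, nothing is read from these shares.

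At Msi1 (chromosome 5, 115359059 to 115455698), 2 of the 6 peaks lay inside the gene, next to each other, with 917 bp between their edges. The wider, at chr5:115436321-115437486, measured 1166 bp and ranked 11 by width among the 3662 peaks of chromosomes 1 to 19 and X. Its neighbour at chr5:115434961-115435403 measured 443 bp. Both lay towards the high-coordinate end, with centres 18.8 and 20.5 kb from it. The other 4 peaks measured 559, 265, 178 and 411 bp and each had another protein-coding gene nearer. The 559 bp peak, 57.99 kb from Msi1, covered the start of Dynll1, which encodes a dynein light chain. It also covered the start of the long noncoding RNA gene Gm13830. The 265 bp peak overlapped Gm13830 too, and its nearest protein-coding gene was Srsf9, an SR-family splicing factor gene, at 9.15 kb. The 178 bp peak lay 5.05 kb from Msi1, and Cox6a1, a cytochrome oxidase subunit gene, was nearer by a few bases. The 411 bp peak lay inside Sirt4, a mitochondrial sirtuin gene.

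At Msi2 (chromosome 11, 88339382 to 88718306), 3 peaks lay inside the gene and 3 beyond its low-coordinate end. Those inside measured 402, 458 and 279 bp, and the 402 and 458 bp peaks were 6.56 kb apart. The nearest of them to an annotated start was 112.94 kb from it. Those outside measured 478, 839 and 527 bp, at 86.3, 64.4 and 29.8 kb from the gene, and for each the nearest protein-coding gene was Ccdc182. The 478 bp peak overlapped the long noncoding RNA gene Gm38534, and the 839 bp peak overlapped another, Gm34366. No peak lay within 5 kb of an annotated Msi2 start or of either end of Msi1.

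The 8 neuronal regulators together had 13 peaks, 9 of them inside 5 of the genes. Srrm4 (chromosome 5, 116439268 to 116592562) had 3, all inside. Beside the peak at its start, peaks of 747 and 506 bp at chr5:116569519-116570265 and chr5:116571087-116571592 lay 21.9 and 20.5 kb downstream of the start, with 821 bp between their edges. All 3 were wider than the upper quartile of all peaks (486 bp). Close spacing of this kind was found at Msi1 and at Srrm4 among these genes, in 4 of the 25 peaks, where 5.08% of all peaks had another listed peak within 1 kb.

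The Rbfox proteins regulate splicing and bind the same short RNA motif. Rbfox3, the gene of the neuronal nuclear antigen NeuN, had 4 peaks within 100 kb (6.43 per Mb of gene and flanks), and Rbfox1 and Rbfox2 had none. In Rbfox3 (chromosome 11, 118489760 to 118911597), peaks of 594 and 346 bp lay inside the gene, 12.5 kb apart and 21.4 and 8.49 kb downstream of the annotated start at 118761041. That start, on the minus strand, lies inside the gene body, and the peak centres were 172 and 159 kb from the high-coordinate end. The peaks outside Rbfox3 measured 524 and 715 bp and lay nearer to other genes. Engase, a cytosolic glycosidase gene, was 6.39 kb from the 524 bp peak, and Enpp7, a sphingomyelin phosphodiesterase gene, 15.1 kb from the 715 bp peak. The 715 bp peak overlapped the long noncoding RNA gene Gm35710.

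Rbfox1 is the longest of the 10 genes, at 1528 kb (chromosome 16, 5884793 to 7412480), and its nearest peak lay 336 kb outside it. Among the 227 protein-coding genes of 500 kb or more, 51.5% had a peak inside or within 100 kb. A count of 0 over the Rbfox1 window of 1728 kb allows up to 1.74 peaks per Mb (3 peaks over the window, counting error only). The windows of all protein-coding genes together held 1.71 peaks per Mb, just below that limit. Their gene bodies alone held 1.91 per Mb, just above it, and most of the Rbfox1 window is gene body. The outcome thus turns on which density is used, and a shortage at Rbfox1 was not tested. Rbfox2 (chromosome 15, 77078990 to 77308434) is 229 kb long and its nearest peak lay 154 kb away, inside Zfp647. Its count of 0 allows up to 6.99 peaks per Mb, which is above the density at Rbfox3, so a difference between Rbfox3 and Rbfox2 was not detectable in this list. Of genes of 200 to 500 kb, 46% had a peak by the same rule.

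Elavl3, which encodes HuC, a relative of HuD made from early in neuronal differentiation, had 1 peak, of 336 bp, inside the gene at chr9:22035528-22035863. Elavl4 had 2 peaks beside the peak over its internal starts. A 278 bp peak lay 4.58 kb from the edge of that peak, on its upstream side, and a 268 bp peak lay 74.03 kb outside the gene with Elavl4 still the nearest protein-coding gene. It was the only one of the 11 peaks outside the members that had no other protein-coding gene nearer. Rbpms, whose product marks retinal ganglion cells, had 1 peak, at chr8:33799705-33800582, inside the gene and 17.5 kb from its low-coordinate end. At 878 bp it ranked 53 of 3662 by width. Nova2, which encodes a splicing regulator of neurons, had 1 peak of 386 bp, 25.7 kb outside the gene. That peak lay 238.5 bp from Mypop, a gene for a Myb-related transcription factor, and covered 200 of the 300 bases of the Mypop promoter window.

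**Figure D2:**
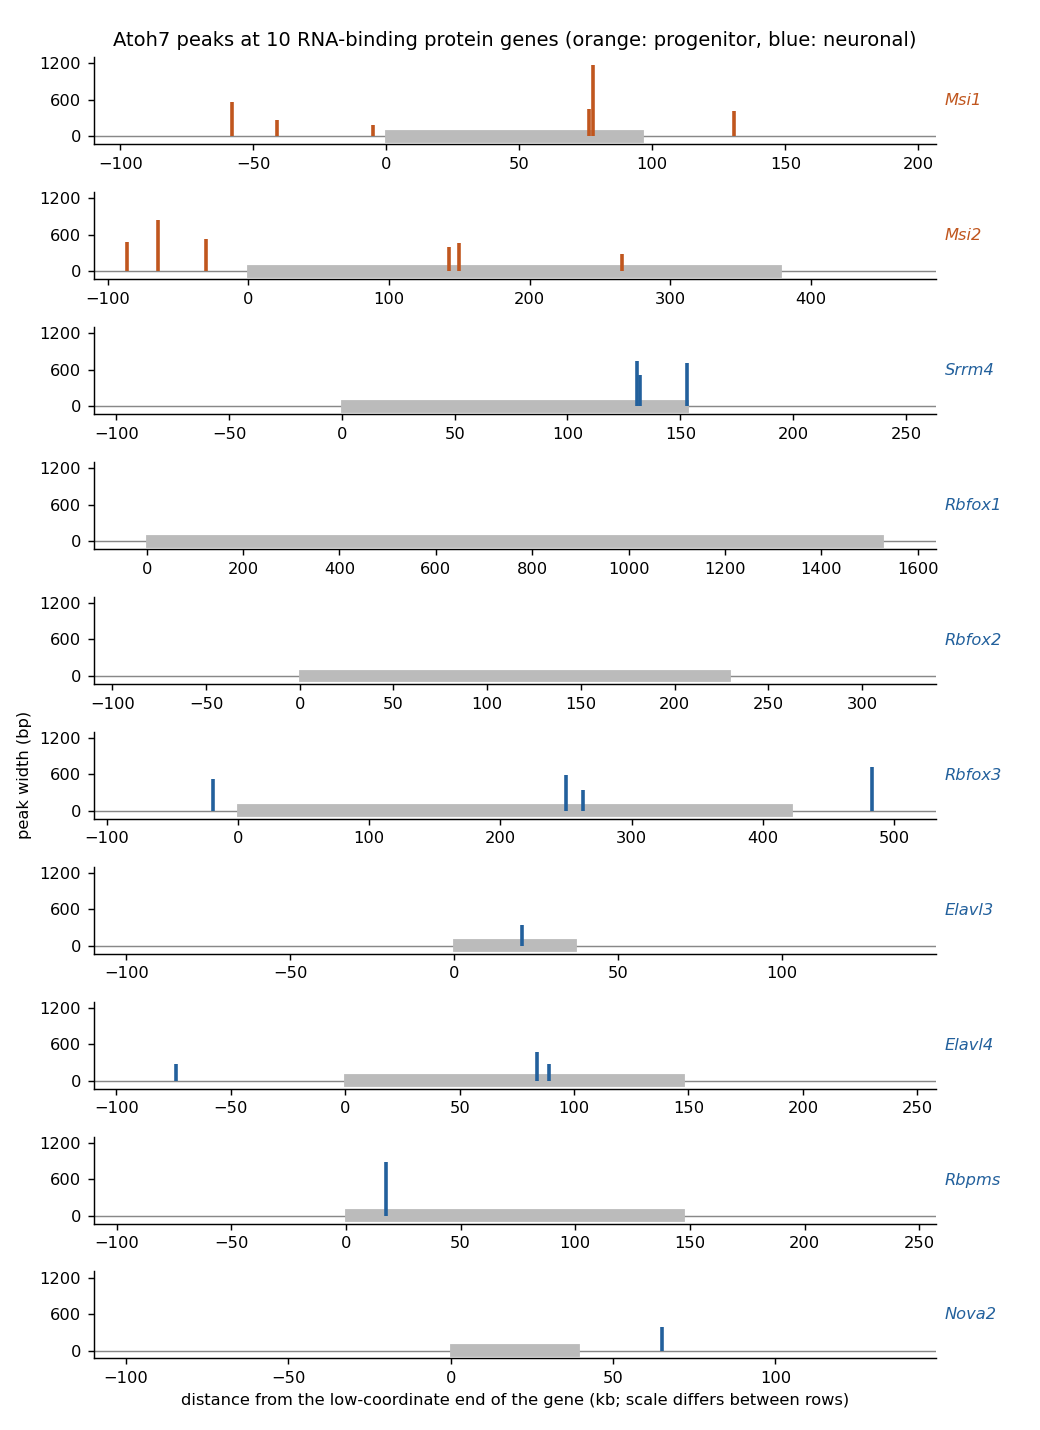
Atoh7 peaks at each of the 10 genes, as vertical lines whose height is the peak width in bp, against distance in kb from the low-coordinate end of the gene (grey bar, gene body), with a scale of its own in each row and 100 kb shown on either side. Orange marks the progenitor regulators with 6 peaks each, blue the neuronal regulators, of which Rbfox1 and Rbfox2 have no peak.

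Peaks at the progenitor and the neuronal genes were set side by side. Msi1 and Msi2 had 12 peaks in 0.876 Mb of gene and flanks (13.7 per Mb), and the 8 neuronal genes had 13 in 4.30 Mb (3.02 per Mb). Rbfox1 alone makes up 1728 kb of the neuronal length, and without it the neuronal density was 5.05 per Mb. Inside the gene bodies the densities were 10.5 per Mb for Msi1 and Msi2 and 3.33 per Mb for the neuronal genes, or 7.65 per Mb without Rbfox1, where protein-coding gene bodies as a whole held 1.91 per Mb. Of the Msi1 and Msi2 peaks, 5 of 12 (41.7%) lay inside the gene, against 9 of 13 (69.2%) for the neuronal genes and 61.6% of all peaks in the windows of protein-coding genes. All 7 outside peaks at Msi1 and Msi2 had another protein-coding gene nearer, as did 3 of the 4 outside peaks at neuronal genes. Counted by nearest gene only, the numbers were 5 peaks for Msi1 and Msi2 and 10 for the neuronal genes, so the near-equal totals of 12 and 13 depended on counting peaks that lie nearer to other genes. A peak at an annotated start, or at a gene end where no start was given, was found at 0 of 2 progenitor genes and at 2 of 8 neuronal genes. The share of all protein-coding genes was 4.38%. Gene ends stood in for starts at Msi1, Rbpms and Rbfox2, and with gene ends for all genes only 1 of the 10 had such a peak. With 2 genes against 8, and counts that the rule itself uses, no test of the contrast was made.

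Inside the gene bodies alone, 7 of the 10 genes held a peak, and 7.17% of protein-coding genes did. The share among protein-coding genes grew with length, from 3.68% below 50 kb to 14.7% from 50 to 200 kb, 32.8% from 200 to 500 kb and 46.7% above that. The median length of the 10 genes was 151 kb, and that of all protein-coding genes was 17.3 kb. Of genes of 50 to 200 kb, 2.91% held 2 or more peaks inside, as Msi1 and Elavl4 did, and 0.734% held 3 or more, as Srrm4 did. Of genes of 200 to 500 kb, 11.8% held 2 or more, as Rbfox3 did, and 4.46% held 3 or more, as Msi2 did. The 10 genes were chosen with earlier results of these data known, so nothing is read from these shares.

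**Figure D3:**
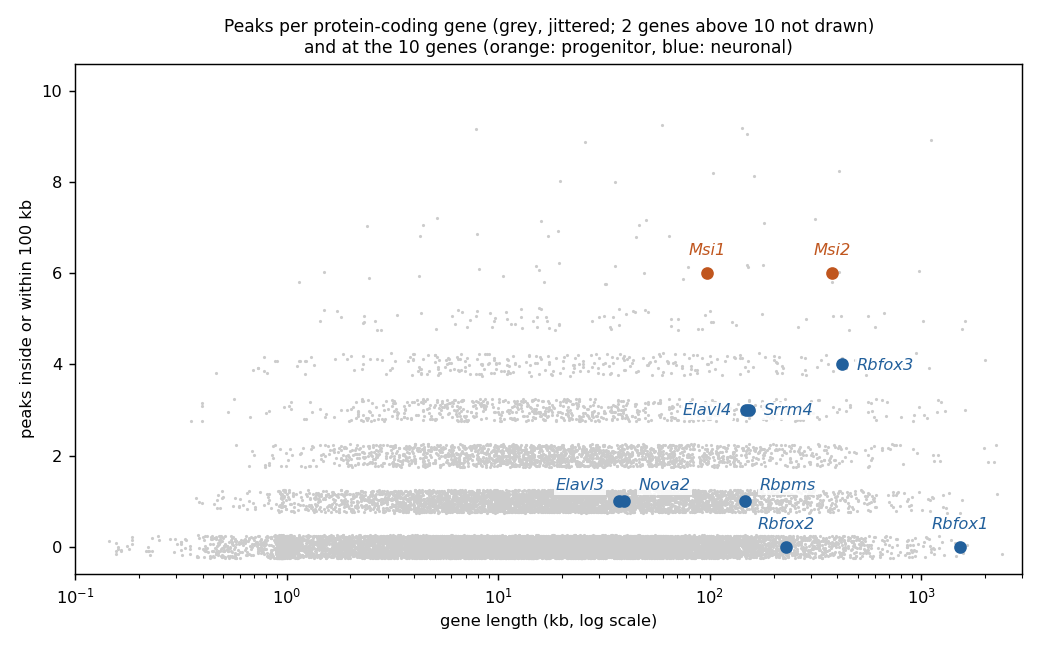
Number of peaks inside or within 100 kb of each protein-coding gene (grey points, spread slightly in height, with the 2 genes above 10 peaks left out) against gene length in kb on a log scale. Msi1 and Msi2 (orange) stand at 6 peaks, the neuronal genes (blue) between 0 and 4, with Rbfox1 at the long end and 0 peaks.

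Peak width, which the rule did not use, was the remaining value the list gives. The 25 peaks had a median width of 476 bp (quartiles 346 and 594 bp), and all peaks had a median of 381 bp (quartiles 269 and 486 bp). Of the 25, 18 were wider than the median of all peaks and 11 wider than its upper quartile, where 49.8% and 24.9% of all peaks were. The peaks at Msi1 and Msi2 ran from 178 to 1166 bp with a median of 450.5 bp, and those at the neuronal genes from 268 to 878 bp with a median of 506 bp. The range of the progenitor genes enclosed that of the neuronal genes. By place, medians were 467 bp inside the 10 genes and 478 bp outside. Width was known for several of these peaks when the genes were chosen, and it is not a measure of how much Atoh7 was bound. At the edge of the rule, the outermost peak counted lay 86.3 kb from Msi2 and was 478 bp wide. The nearest left out lay 105 kb from Msi2 and 108 kb from Elavl4 and were 279 and 600 bp wide.

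**Figure D4:**
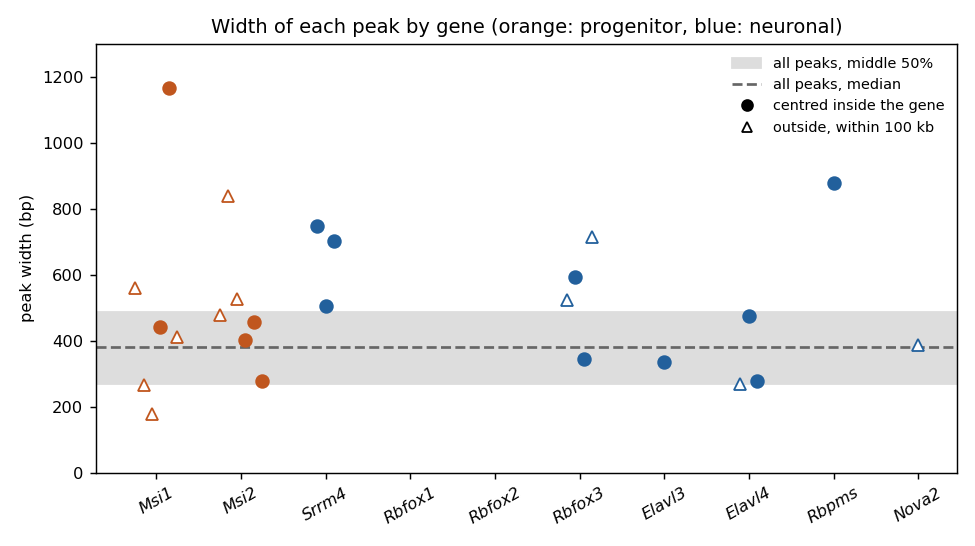
Width in bp of each of the 25 peaks by gene, filled circles for peaks centred inside the gene and open triangles for those outside within 100 kb, with the median (dashed line, 381 bp) and the middle 50% (grey band, 269 to 486 bp) of all peaks. The 1166 bp peak of Msi1 and the 878 bp peak of Rbpms stand highest, and the 178 bp peak near Msi1 is the narrowest.

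Other RNA-binding protein genes were counted by the same rule. Of 42 further neural or developmental genes, 16 (38.1%) had a peak inside or within 100 kb, beside 8 of the 10 members and 34.9% of all protein-coding genes, and 9 (21.4%) had a peak inside. Among them, Srrm3, the relative of Srrm4 that also promotes microexons, and Tardbp, the gene of TDP-43, had 3 peaks each. A peak within 1 kb of a start was found at 2 of the 42, Tardbp and Ptbp1, the last named after its values were seen. Of all protein-coding genes, 4.38% had 1. Ptbp1 encodes a repressor of neuronal exons in non-neuronal and progenitor cells. Nova1, also named after its values were seen, held 1 peak inside, of 593 bp, unlike its relative Nova2.

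Of 30 genes of the general splicing machinery, used in every cell, 13 (43.3%) had a peak by the rule but 1, Cwc22, had a peak inside. Cwc22 had 17 of the 34 peaks counted over that list, 11 of them inside. Next came Srsf5 with 3, and Eif4a3, Hnrnpa1 and Srsf4 with 2 each, none of them centred inside the gene. A peak within 1 kb of a start was found at 3 of the 30, Cwc22, Eif4a3 and Srsf4, the last named after its values were seen. Counted by nearest gene only, 3 of the 30 splicing machinery genes had a peak (10%), against 10 of the 42 RNA-binding protein genes (23.8%), 7 of the 10 members and 11.1% of all protein-coding genes. The lists are of unequal gene length, with medians of 11.9 kb for the splicing machinery and 72.7 kb for the 42 RNA-binding protein genes, and the differences were not tested.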

How the data were processed

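CUT&RUN libraries of mouse retina at embryonic day 14 were grouped by their titles, 2 titled Atoh7 and 1 titled IgG. The authors named the mm10 build and the tools MACS2 2.2.7.1, Picard 2.0.1, Bowtie2 2.3.5, bedtools and SAMtools, per the submitters' processing notes, with no order or settings seen here. The deposited list of 3668 peaks gives start, end and width in bp, counted from 1, per the file headers. It has no height, so depth per library is unknown. Every peak name begins with Atoh7_R1, and for the replicate 2 and IgG libraries their part in making the list was not given in the sources used here.

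Peaks on chromosomes 1 to 19 and X (3662) were set against 21631 protein-coding genes of RefSeq GRCm38.p6. Midpoints were assigned as described above, and starts came from the RefSeq promoter table or, for Msi1, Rbpms and Rbfox2, from either gene end. E-boxes were searched in the 250 bases before each start; CAGATG was searched on both strands. The peak assignment was tested on simulated data. No statistical test was planned or run. The named genes were all members, the 4 genes with most peaks in each other list, and genes nearer to a member's peak; some that this rule names are not reported here. The members and lists were chosen with earlier results of these data known. Alternatives were 50 kb, 10 kb, gene body only, overlap of 1 bp, nearest gene only, the wider 50% of peaks, 5 kb for starts and, added after the data were seen, gene ends for all genes. Scripts ran on Python 3.11.15 with pandas 2.3.3, numpy 2.4.6 and matplotlib 3.10.9.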

Additional observations from a re-analysis of the deposited data

How the results depend on the processing

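Of 43 alternative values, 28 stayed within 1.5 times the main count or within the spread of widths. The total of 25 peaks at the 10 genes became 15 within 10 kb, 14 inside the gene bodies and 15 by nearest gene. The 12 peaks at Msi1 and Msi2 became 6, 5 and 5 under the same settings, while the 13 at the neuronal genes moved by less than 1.5 times. The 16 other RNA-binding protein genes with a peak became 10, 9 and 10. The 13 splicing machinery genes became 7 within 50 kb, 4 within 10 kb, 1 inside, 3 by nearest gene and 8 with the wider 50% of peaks. Counting from the ends of the gene body, chosen after the data were seen, left 1 gene with a peak at its start in place of 2, because the internal Elavl4 starts are not gene ends. The shorter windows take in less sequence; for the wider peaks the cause was not tested. No paired analysis was possible because the list holds no value per library, and for the same reason no replicate could be left out. Depth is unknown, so a gene without a listed peak is not shown to lack Atoh7.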

Other observations

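The numbers in the peak names rise with position on every chromosome and reach 7185, so 3517 numbers are absent from the list. If the absent numbers follow the same order, some fall inside these genes. Between the Srrm4 peaks numbered 5261 and 5264, both inside the gene and 20.2 kb apart, 2 numbers are absent. Between the Elavl4 peak over its internal starts, numbered 4665, and the next at 4667, 4.58 kb away, 1 number is absent. Between the Msi2 peaks numbered 1093 and 1095, both inside that gene, 1 is absent. Between the peaks on either side of Rbfox1, 4 numbers are absent, and between those on either side of Rbfox2, 2 are absent, within spans that also hold sequence outside the genes. Rbfox1 has a second annotated start inside the gene, at 7069835, whose upstream 250 bases held CAGCTG beginning 72 bases before it, and 719 kb separated it from the nearest listed peak.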
